A study of Mus musculus with 6 samples.

Results

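The 10 genes described here control the making, sensing and transport of bile acids in liver, and they were compared between 2 substrains of mice fed a high-fat diet. They are Cyp7a1, Cyp8b1, Cyp27a1 and Cyp7b1 (synthesis), Nr0b2, Nr1h4, Fgfr4 and Klb (feedback), and Slc10a1 and Abcb11 (transport). They were taken by symbol from the 22180 genes that the arrays measured with a probe set naming 1 gene. The rule, where a gene had several probe sets, was to use the one with the highest mean over all arrays, but each of the 10 genes had 1 probe set, so no measured value entered that choice. The genes themselves were selected on earlier results of these data, among them the strain differences of Cyp7a1 and Nr0b2, so differences between the strains are given as a description. Liver RNA was measured on 6 arrays of male mice, with 3 arrays for Balb/c and 3 for Balb/cBy. All mice were 20 weeks old, were caged singly, and ate a diet in which fat gave 58% of the energy for 12 weeks, starting at 8 weeks of age. No transgene, knockout or drug is named for either group, and the diet was common to both, so its effect cannot be read here. Balb/cBy mice are known to carry a deletion in Acads, a short-chain acyl-CoA dehydrogenase. The arrays are labelled as biological replicates, and the labels name neither the supplier of the mice nor the hour of collection.

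Bile acids are made from cholesterol in hepatocytes. The classical route begins with Cyp7a1 and the alternative route with Cyp27a1 followed by Cyp7b1, while Cyp8b1 adds the hydroxyl group that makes cholic acid. Bile acids that return to the liver bind the nuclear receptor FXR (Nr1h4), which induces SHP (Nr0b2), a receptor without a DNA-binding domain that represses Cyp7a1 and Cyp8b1. FXR in the ileum induces FGF15, which reaches hepatocytes through the portal blood and acts on Fgfr4 and its co-receptor Klb to lower Cyp7a1 further. Slc10a1 (NTCP) takes bile acids up from blood, and Abcb11 (BSEP), an FXR target, exports them into bile.

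Values are log2 RMA values of a probe set, and differences are Balb/cBy minus Balb/c on that scale with the moderated standard error (SE) of limma. Medians of the arrays ranged from 7.66 to 7.74, and correlations between them from 0.972 to 0.988. Of the 22180 genes, 0 passed an adjusted p of 0.05 in limma with Benjamini-Hochberg adjustment (0%), with 833 (3.76%) at an unadjusted p under 0.05. The 3 arrays per group limit the precision. Hepatocyte transcripts were abundant in every array: albumin (Alb) lay between 14.16 and 14.22 and Cyp2e1 between 13.93 and 14.08. Among 10 measured hepatocyte markers the array mean ran from 13.42 to 13.47 in Balb/c and from 13.38 to 13.52 in Balb/cBy. Balb/c replicate 3 stood apart in several gene groups, with low acute phase transcripts (Saa2 at 9.94, with 13.91 and 13.87 in Balb/c replicates 1 and 2) and the highest mean of the pancreatic enzyme transcripts. For the gene lists, the range of the median when 1 array at a time was left out is given beside the median.

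Cyp7a1 was the gene of the 10 with the largest difference, higher in Balb/cBy, and Nr0b2 the one with the largest difference in the other direction. None of the 10 passed the threshold in limma, each with an adjusted p of 0.999 over all genes, and 2, Cyp7a1 and Nr0b2, had an unadjusted p under 0.05. By their means 7 were higher in Balb/cBy and 3 lower, the median being 0.05, against a median of -0.0028 over all genes. The 2 strains did not overlap for 2 of the 10, Cyp27a1 above and Nr0b2 below, where 7.83% of all genes showed no overlap (4.32% higher and 3.51% lower). Because the genes were picked with this contrast known, nothing is read from that count.

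**Figure D1:**
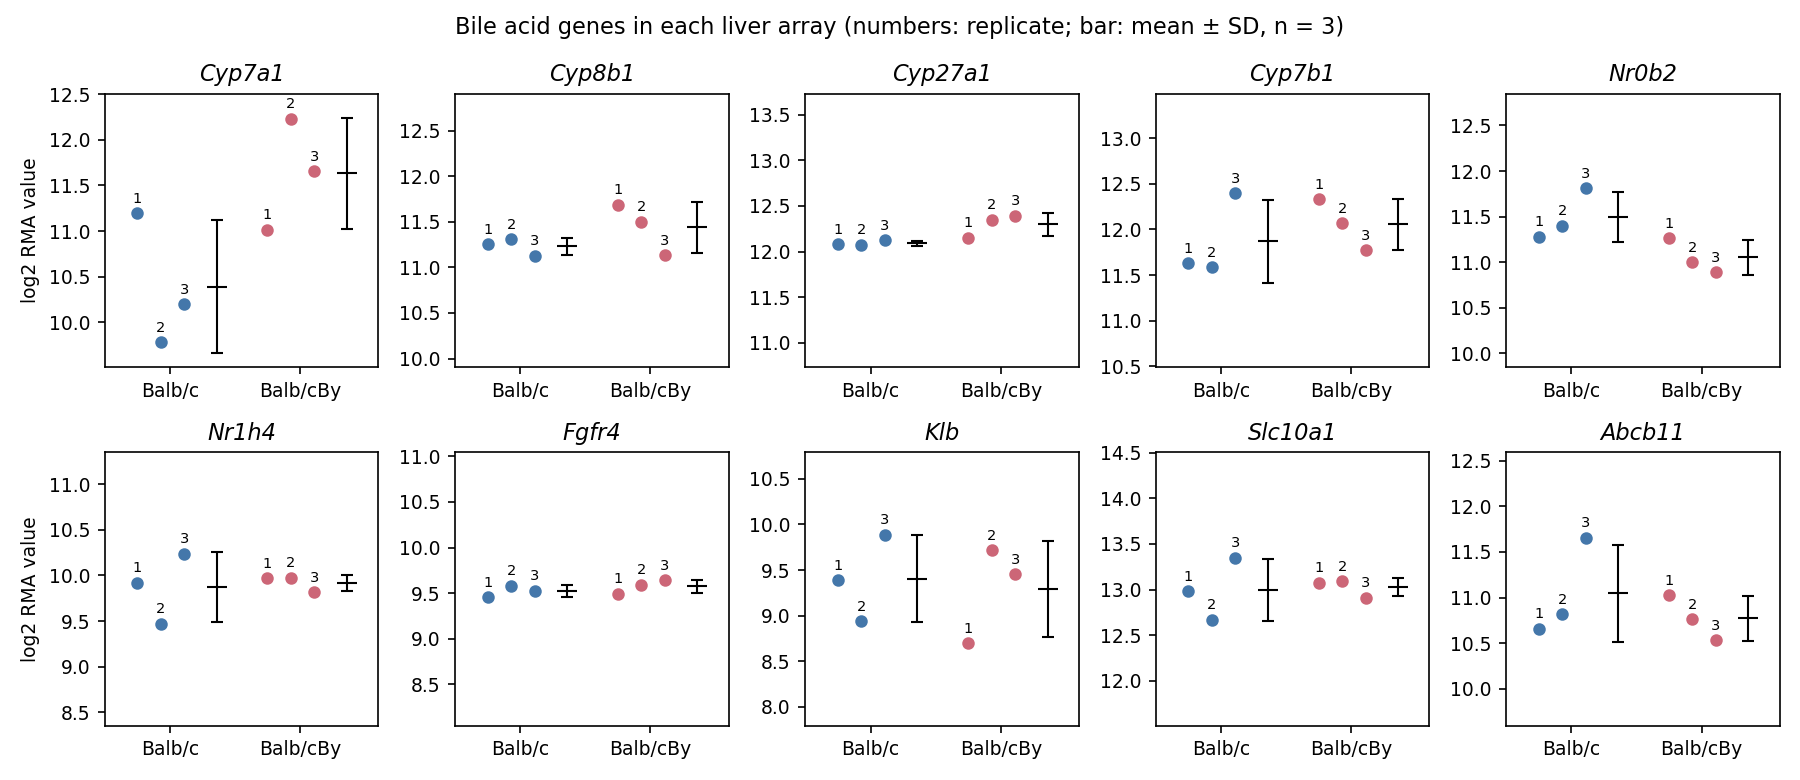
Log2 RMA value (y axis, each panel spanning 3 log2 units) of each of the 10 genes in the 3 Balb/c and 3 Balb/cBy arrays, with the replicate number over each point and the mean ± SD beside the points. Cyp7a1 is spread from 9.78 to 12.23 with overlap of the strains at replicate 1, while the Nr0b2 points of Balb/cBy, 10.89 to 11.27, lie below those of Balb/c, 11.28 to 11.81.

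Cyp7a1, the rate-limiting enzyme of the classical route, stood at 11.20, 9.78 and 10.20 in Balb/c replicates 1, 2 and 3 and at 11.01, 12.23 and 11.66 in Balb/cBy replicates 1, 2 and 3. The 2 arrays numbered 1 lay close together from opposite strains, so the groups overlapped, and the other arrays were far apart by strain. The means were 10.39 ± 0.73 and 11.63 ± 0.61 (SD, n = 3 each). The log2 difference was 1.24 (SE 0.39), or 2.37-fold, with an adjusted p of 0.999 in limma. Across all 22180 genes, 10 had a larger difference upward. Nothing is read from that rank, because the gene was chosen with this difference known. Without one array at a time the difference of Cyp7a1 ran from 0.94 (without Balb/c replicate 2) to 1.64 (without Balb/c replicate 1). Within a strain Cyp7a1 varied from mouse to mouse by 2.66-fold in Balb/c and 2.33-fold in Balb/cBy between the highest and the lowest array. Its pooled within-strain SD of 0.67 was above that of 99.5% of genes, whose median was 0.14.

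The 3 other enzymes had small differences, all with a higher mean in Balb/cBy. Cyp27a1, the mitochondrial sterol hydroxylase that opens the alternative route, stood at 12.08, 12.07 and 12.12 in Balb/c and at 12.15, 12.35 and 12.39 in Balb/cBy. The strains did not overlap, but the gap between the nearest arrays was 0.03, and the difference was 0.21 (SE 0.10), or 1.15-fold. Cyp8b1, the sterol hydroxylase of the cholic acid branch, stood at 11.25, 11.31 and 11.13 in Balb/c and at 11.69, 11.50 and 11.14 in Balb/cBy. Balb/cBy replicate 3 lay within the Balb/c range, and the difference was 0.21 (SE 0.15), or 0.09 without Balb/cBy replicate 1. Leaving out Balb/cBy replicate 3 instead gave 0.36. Cyp7b1, the oxysterol hydroxylase of the alternative route, stood at 11.63, 11.59 and 12.40 in Balb/c and at 12.33, 12.07 and 11.77 in Balb/cBy. Its highest value was in Balb/c replicate 3, and the difference was 0.19 (SE 0.23). It was 0.45 without that array. Leaving out another Balb/c array gave 0.07 (replicate 1) and 0.04 (replicate 2), and leaving out Balb/cBy replicate 1 gave 0.05.

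Nr0b2, which encodes the repressor SHP, stood at 11.28, 11.40 and 11.81 in Balb/c and at 11.27, 11.00 and 10.89 in Balb/cBy. All Balb/cBy arrays were below all Balb/c arrays, but Balb/c replicate 1 and Balb/cBy replicate 1 were separated by a gap of 0.015. The means were 11.50 ± 0.28 and 11.05 ± 0.19 (SD, n = 3 each). The log2 difference was -0.44 (SE 0.16), with Balb/c 1.36-fold above Balb/cBy and an adjusted p of 0.999 in limma. Without Balb/c replicate 3 the difference was -0.29, and without Balb/c replicate 1 it was -0.55. In liver tissue, fewer cells of a type and less RNA per cell cannot be told apart, which holds for every gene described here.

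Transcripts of digestive enzymes of the exocrine pancreas had, like Nr0b2, their highest mean in Balb/c replicate 3. Of 20 such markers, a list added after the values were seen, 19 were measured, 17 with a lower and 2 with a higher mean in Balb/cBy (median -0.16). The 2 members with the highest mean were Cela1, an elastase, at 9.01, 8.88 and 9.15 in Balb/c and 9.03, 8.90 and 8.99 in Balb/cBy, and Ctrl, a chymotrypsin-like enzyme, at 8.61, 8.77 and 9.06 against 8.59, 8.36 and 8.45. The strains overlapped for Cela1, with a difference of -0.04 (SE 0.10), and not for Ctrl, with -0.35 (SE 0.13). The 2 with the largest differences are named after their values were seen. Ctrb1, chymotrypsinogen, stood at 8.43, 8.45 and 9.69 in Balb/c and at 8.19, 8.25 and 8.34 in Balb/cBy, and Try4, a trypsinogen, at 7.63, 7.66 and 9.20 against 7.66, 7.56 and 7.43. Balb/c replicate 3 was the highest array for all 4, as it was for Nr0b2. It was not the highest for Try5, Ctrc, Amy2b and Spink1. The list holds Ctrl and Cpa1, which are among the genes closest to Nr0b2 over these same arrays. Nothing is therefore read from the likeness of the list to Nr0b2. The list's mean level ran from 7.30 to 7.79 in Balb/c and from 7.20 to 7.41 in Balb/cBy, and its lowest member was Amy2b, at 4.17 to 4.78. With single arrays left out the median of the list ran from -0.25 (Balb/c replicate 1 out) to -0.07 (Balb/c replicate 3 out). The part of these transcripts in the difference of Nr0b2 was not tested.

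The receptor and co-receptors of the feedback loop differed little in their means. Nr1h4, which encodes FXR, stood at 9.92, 9.47 and 10.24 in Balb/c and at 9.97, 9.97 and 9.82 in Balb/cBy. The Balb/cBy arrays fell inside the wider Balb/c range, and the difference was 0.04 (SE 0.18) with an unadjusted 95% interval from -0.37 to 0.46. Fgfr4, the FGF15 receptor of hepatocytes, was the steadiest of the 10, at 9.46, 9.58 and 9.53 in Balb/c and 9.49, 9.59 and 9.64 in Balb/cBy. Its difference was 0.05 (SE 0.09) with an interval from -0.16 to 0.26. Its within-strain SD of 0.069 was above that of 9.88% of genes. Klb, the co-receptor beta-Klotho, was less steady, at 9.39, 8.94 and 9.89 in Balb/c and at 8.70, 9.72 and 9.46 in Balb/cBy. The difference of -0.11 (SE 0.30, interval from -0.80 to 0.57) was 0.18 without Balb/cBy replicate 1, the lowest array, and 0.13 without Balb/c replicate 3, the highest. Repeating the quantile normalization turned the small differences of Nr1h4 and Fgfr4 to -0.01 each.

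**Figure D2:**
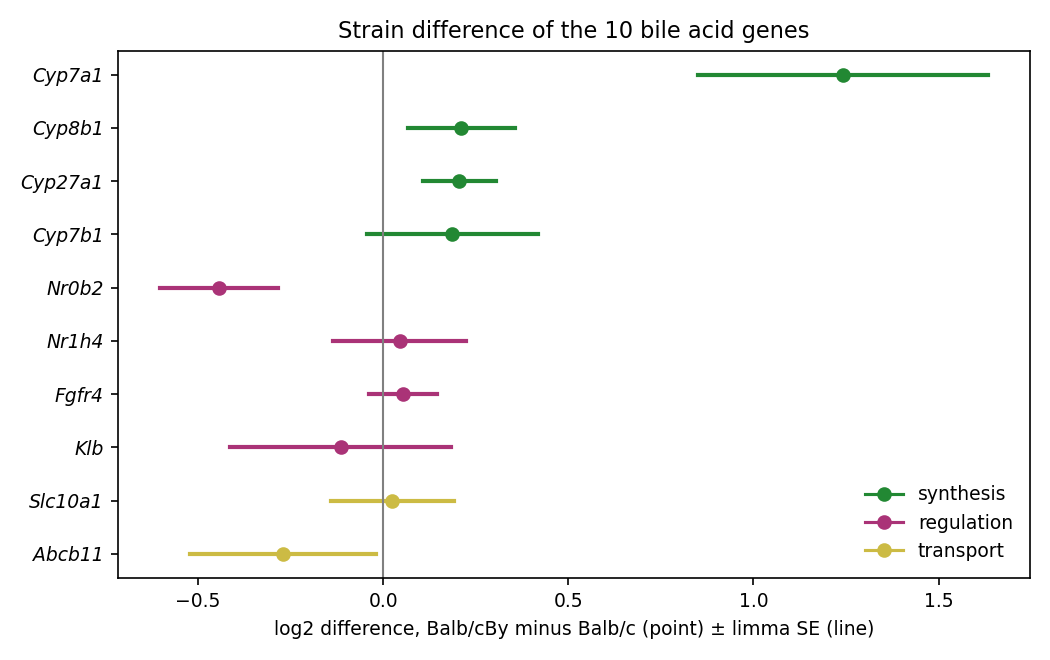
Log2 difference, Balb/cBy minus Balb/c (x axis), of the 10 genes (points) with the limma SE (lines), coloured by role. Cyp7a1 lies at 1.24 with the widest line, Nr0b2 at -0.44, and the other 8 genes between -0.27 and 0.21, though the signs of Nr1h4, Fgfr4, Klb, Slc10a1 and Abcb11 depend on the array left out or the scaling.

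The uptake carrier and the export pump did not differ beyond the spread between mice. Slc10a1 stood at 12.98, 12.67 and 13.35 in Balb/c and at 13.07, 13.09 and 12.91 in Balb/cBy. As with Nr1h4, the Balb/cBy arrays lay inside the Balb/c range, and the difference was 0.03 (SE 0.17, interval from -0.35 to 0.41). Abcb11 stood at 10.66, 10.82 and 11.66 in Balb/c and at 11.03, 10.76 and 10.53 in Balb/cBy. Balb/c replicate 3 was far above the other arrays, and the difference of -0.27 (SE 0.25) was 0.04 without it. Balb/c replicate 3 held the highest value of 6 of the 10 genes, namely Cyp7b1, Nr0b2, Nr1h4, Klb, Slc10a1 and Abcb11.

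Nr0b2 and Abcb11 are FXR-driven genes whose values went together across the arrays (r = 0.88, or 0.58 without Balb/c replicate 3). Cyp8b1 is a target of SHP. For these reasons stretches upstream of the 3 genes are shown. They are the 250 bases before the annotated start in RefSeq's GRCm38.p6 table, which matched 8 of the 10 genes (all but Cyp7a1 and Cyp7b1) with 9 windows. Each is written 5′ to 3′ on the gene's strand. Capitals mark matches to CAAGGNCA, a form of the site of LRH-1 (Nr5a2), the activator through which SHP acts, to GGNCANTGNCC, a loose form of the inverted repeat bound by FXR, to CAAAGTCCA, a form of the HNF4A site, and to TATAAA. The Nr0b2 stretch is chr4:133553126-133553375 on the plus strand, the Abcb11 stretch chr2:69342617-69342866 on the minus strand, and the Cyp8b1 stretch chr9:121916306-121916555 on the minus strand.
Nr0b2: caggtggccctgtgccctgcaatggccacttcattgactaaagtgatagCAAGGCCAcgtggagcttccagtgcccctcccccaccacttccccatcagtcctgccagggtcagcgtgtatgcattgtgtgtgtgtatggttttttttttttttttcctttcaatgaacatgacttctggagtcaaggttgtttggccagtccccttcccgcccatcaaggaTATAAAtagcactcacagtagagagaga
Abcb11: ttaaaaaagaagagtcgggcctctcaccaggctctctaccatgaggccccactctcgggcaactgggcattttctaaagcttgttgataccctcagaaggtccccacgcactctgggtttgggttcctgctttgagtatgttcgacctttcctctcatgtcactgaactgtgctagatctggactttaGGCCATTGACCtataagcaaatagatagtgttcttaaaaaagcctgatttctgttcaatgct
Cyp8b1: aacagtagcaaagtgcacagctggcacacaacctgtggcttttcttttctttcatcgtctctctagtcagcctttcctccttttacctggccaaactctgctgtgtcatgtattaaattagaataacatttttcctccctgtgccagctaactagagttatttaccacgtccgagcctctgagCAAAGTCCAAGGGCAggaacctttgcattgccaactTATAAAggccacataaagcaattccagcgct

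Nr0b2 held CAAGGCCA with its first base 201 bases before the start and TATAAA at 28 bases before it. Abcb11 held GGCCATTGACC at 62 bases before the start. Of the 9 windows only that of Abcb11 matched GGNCANTGNCC, so the Nr0b2 window held no match to it. Cyp8b1 held CAAAGTCCA at 67 and CAAGGGCA at 60 bases before the start, overlapping each other, and TATAAA at 31. Both strands of each window of 300 bases (250 before to 50 after the start) were searched. CAAGGNCA was present in 6.71% of all 32851 windows, GGNCANTGNCC in 0.676%, CAAAGTCCA in 0.475% and TATAAA in 13.6%. The letters were set with these sequences in view, and the stricter forms CAAGGTCA (1.56% of all windows) and AGGTCANTGACCT (0.00913%) were in none of the 9 windows. A match describes letters only, and the arrays measured no binding.

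The relation of Cyp7a1 to Nr0b2 is a description, with no p, because it was part of why these genes were chosen. The Nr0b2 value was highest in Balb/c replicates 3 and 2, where Cyp7a1 was lowest, and lowest in Balb/cBy replicates 3 and 2, where Cyp7a1 was highest. The 2 arrays numbered 1 lay between, at nearly the same point. Over the 6 arrays Pearson's r was -0.80 and Spearman's rho -0.83. Part of it is the difference between the strains themselves: with the strain means removed, r was -0.54. Leaving out 1 array at a time gave r from -0.91 to -0.77. Without the 2 arrays farthest from the median of Cyp7a1, Balb/c replicate 2 and Balb/cBy replicate 2, the 4 arrays left gave -0.99.

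**Figure D3:**
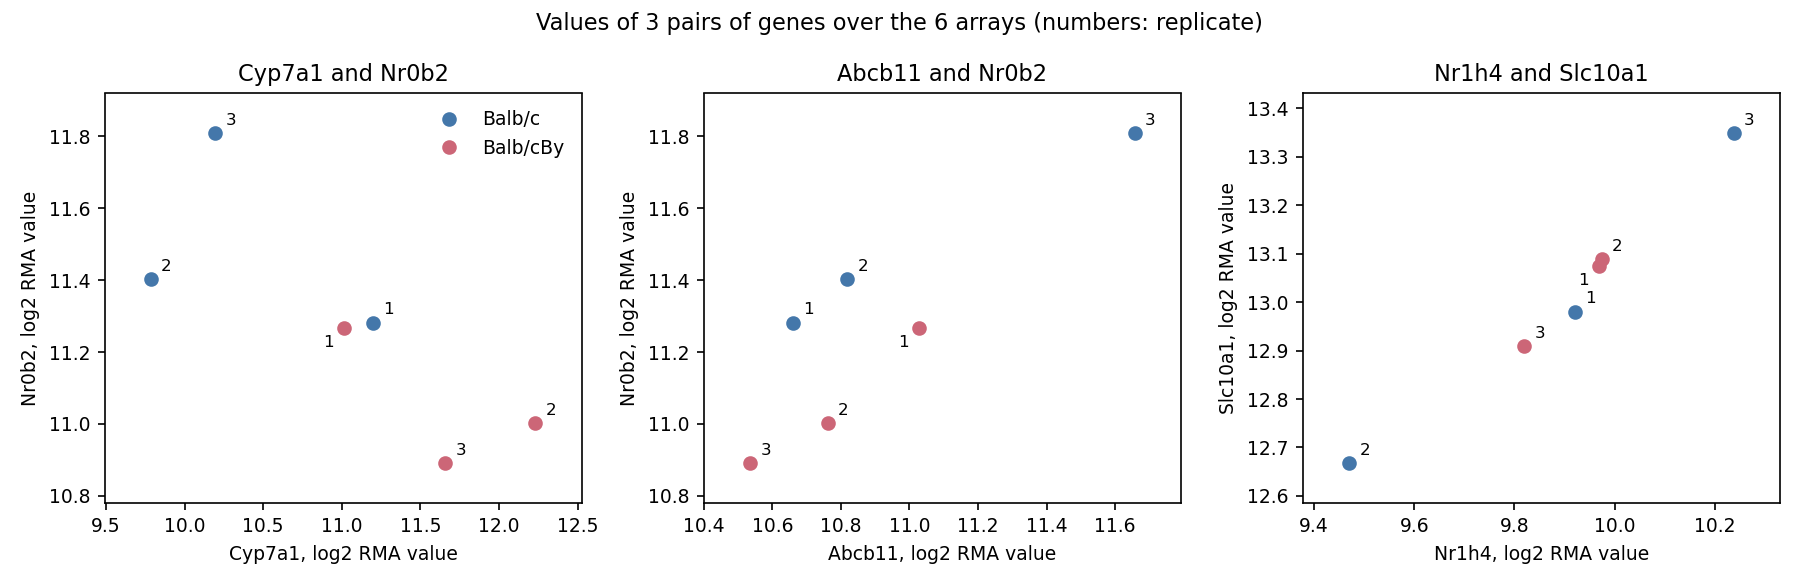
Log2 RMA values of 3 pairs of genes over the 6 arrays (points, with replicate numbers, coloured by strain). Nr0b2 lies lower where Cyp7a1 is higher (r = -0.80), Nr0b2 and Abcb11 go together with Balb/c replicate 3 at the far end (r = 0.88), and Nr1h4 and Slc10a1 lie close to a line (r = 0.99).

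Among the 45 pairs of the 10 genes, 3 had a Pearson r above 0.8 over the 6 arrays, again as a description with no p. Nr1h4 and Slc10a1 had r = 0.99 and the same order of all arrays (rho = 1), with r = 0.99 also when the strain means were removed. Nr0b2 and Abcb11 had r = 0.88 and rho = 0.71, or r = 0.58 without Balb/c replicate 3. Cyp7b1 and Slc10a1 had r = 0.85, or 0.75 without that array. On the negative side Nr0b2 and Cyp27a1 had r = -0.76, near the value of Nr0b2 and Cyp7a1. For Nr0b2 and Cyp27a1 it was -0.39 with the strain means removed and -0.98 without Balb/c replicate 3. All these values share arrays and their normalization, so arrays that stand apart move many genes at once.

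Genes alike to Cyp7a1 and Nr0b2 were sought among 3295 other genes with a proper symbol, a level at or above the median gene and an SD over the arrays of at least 0.2. The 5 genes closest to Cyp7a1 were Thoc5 (r = 0.99), Rps18 (r = 0.99), Prmt5 (r = 0.99), Txnl4a (r = 0.99) and Eif2b2 (r = 0.99), and the 3 most opposite were Erbb3 (r = -0.97), Ube2h (r = -0.96) and Cel (r = -0.95). Values over 6 arrays are imprecise. With Cyp7a1, 231 genes had r above 0.9 and 8 had r below -0.9, while 10 genes had r above 0.9 with Nr0b2. Nr0b2 ranked 31 from the most opposite end for Cyp7a1. In the other direction, Cyp7a1 ranked 308 from the most opposite end for Nr0b2, with which 76 genes had r below -0.9. The 5 genes closest to Nr0b2 were Pgrmc1 (r = 0.98), Ctrl (r = 0.97), Mup21 (r = 0.96), Cpa1 (r = 0.94) and Tgoln1 (r = 0.94), and the 3 most opposite were Fcna (r = -0.99), Susd2 (r = -0.99) and Tagln (r = -0.98). Cel, Ctrl and Cpa1 encode digestive enzymes of the pancreas.

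Of the other genes of the bile acid pathway, 0 passed an adjusted p of 0.05 in limma in either direction. Among 16 measured further genes of synthesis (of 17 listed), 3 had a higher and 13 a lower mean in Balb/cBy (median -0.08, or -0.13 to -0.03 without single arrays, the last being without Balb/c replicate 3), where 49.1% of all genes had a higher mean. Abcd3, a peroxisomal transporter that imports bile acid precursors, had the smallest p, with 11.52, 11.27 and 11.71 in Balb/c and 11.02, 11.28 and 11.14 in Balb/cBy, a difference of -0.35 (SE 0.13). Hsd17b4, a peroxisomal enzyme of side-chain shortening, differed by -0.20 (SE 0.09), and Baat, which joins bile acids to taurine, by -0.24 (SE 0.12), both without overlap of the strains. Cyp39a1, an oxysterol hydroxylase, had the largest upward difference of this group, 0.44 (SE 0.24), with overlap. It is named after its values were seen.

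Among 17 measured regulators (of 19 listed), 8 had a higher and 9 a lower mean in Balb/cBy (median -0.0012, from -0.04 to 0.03 without single arrays), and the strains overlapped for each. Onecut1 (HNF6), a hepatocyte transcription factor, differed by 0.77 (SE 0.41), with 1 high array. It stood at 9.71, 9.26 and 9.54 in Balb/c and at 9.70, 11.38 and 9.73 in Balb/cBy. The high array was the one with the highest Cyp7a1. That is 1 array, and the part of Onecut1 in the Cyp7a1 values was not tested. Mafg, an FXR-induced repressor, differed by -0.17 (SE 0.11), and Hnf4a by 0.17 (SE 0.12). Nr5a2, named after its values were seen because its site is marked above, stood at 10.01, 9.94 and 10.46 in Balb/c and 9.83, 10.06 and 10.02 in Balb/cBy. Fgf15, an intestinal hormone, had values of 7.78 to 8.31. No ileum was measured here.

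**Figure D4:**
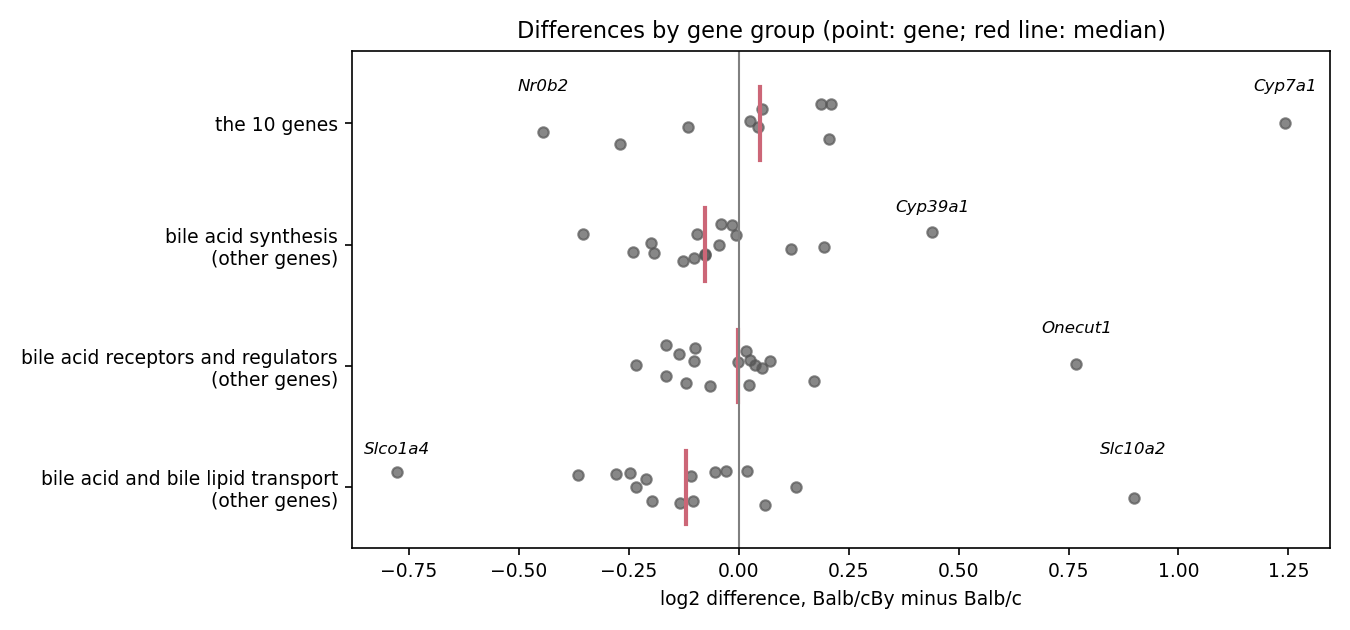
Log2 difference, Balb/cBy minus Balb/c (x axis), of single genes (points) in the 10 genes and in 3 further groups of bile acid genes, with the group median (red line). Names are given where a difference exceeds 0.4 in size: Slc10a2 and Slco1a4 lie at 0.90 and -0.78 among the transporters, and medians lie between -0.12 and 0.05.

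Among 16 measured further transporters (of 17 listed), 4 had a higher and 12 a lower mean, with a median of -0.12. With single arrays left out it ran from -0.23 (Balb/c replicate 2 out) to 0.03 (Balb/c replicate 3 out). Slc10a2 (ASBT), the apical sodium-dependent carrier known from ileum and bile ducts, had the largest upward difference. It stood at 8.57, 8.69 and 8.83 in Balb/c and at 9.14, 10.08 and 9.56 in Balb/cBy. The strains did not overlap, and the difference was 0.90 (SE 0.21, adjusted p = 0.999 in limma). Among 6 measured markers of cholangiocytes (of 9), the cells of the bile ducts, 2 were higher and 4 lower with a median of -0.06 (-0.07 to -0.0079 without single arrays). The median was 0.04 with a filter at the 25th percentile of level, which drops Cftr and Epcam. A filter at the median of level leaves Sox9 alone, so the 0.16 found there is the difference of that gene. Muc1 was higher without overlap, by 0.18 (SE 0.10), and is named after its values were seen. Their array mean ran from 7.57 to 7.65 in Balb/c and from 7.53 to 7.67 in Balb/cBy, and Sox9 (8.38 to 8.97, a difference of 0.16 with SE 0.15) and Krt19 (7.82 to 8.06, a difference of -0.07 with SE 0.10) had the highest means. Among 9 enterocyte markers, Slc10a2 included, 4 were higher and 5 lower, with a median of -0.05 (-0.12 to 0.03 without single arrays) and an array mean of 7.65 to 7.79 in Balb/c and 7.70 to 7.81 in Balb/cBy. Lct, the next of them by mean, lay between 8.07 and 8.45, and Fabp6, the ileal bile acid binding protein, between 7.47 and 7.59. The part of these cells in the difference of Slc10a2 was not tested. Slco1a4, an organic anion carrier of the sinusoidal membrane, had the largest downward difference. It stood at 8.36, 8.13 and 8.56 in Balb/c and at 6.85, 8.08 and 7.79 in Balb/cBy, a difference of -0.78 (SE 0.29). Its strains did not overlap, though the nearest arrays, at 8.13 and 8.08, were close, and Balb/cBy replicate 1 was the lowest by far. Slco2b1, another carrier of that family, differed by 0.13 (SE 0.09).

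LXR is a sterol receptor that induces Cyp7a1 in mice. Of 11 measured LXR target genes, 2 of which are also on the transporter list, 4 were higher and 7 lower, with a median of -0.06. Scd1, a desaturase also under other control, differed by -0.91 (SE 0.18), from 13.21, 13.09 and 13.42 in Balb/c to 11.92, 12.41 and 12.66 in Balb/cBy. Abcg8, which exports sterols into bile together with Abcg5, differed by -0.36 (SE 0.41) and Lpcat3 by -0.11 (SE 0.12). Abcg8 was low in Balb/cBy replicate 1 alone, at 8.89 against 10.48 and 10.60 in the other Balb/cBy arrays. The median of the list was 0.13 without that array. Leaving out Balb/c replicate 3 instead gave -0.18.

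Cyp7a1 is known to follow the daily clock, the meal and inflammatory signals, and genes of these kinds varied among arrays of the same strain. Of 15 measured clock genes, 6 were higher and 9 lower, with a median of -0.03. Its sign turned when Balb/c replicate 3 was left out (0.14) and when Balb/cBy replicate 1 was left out (0.12), and its lowest value was -0.08, with Balb/c replicate 1 out. Dbp, a clock output gene, stood at 9.24, 8.88 and 10.45 in Balb/c and at 8.62, 10.18 and 9.94 in Balb/cBy, and Arntl (Bmal1) at 8.58, 8.86 and 7.92 against 9.04, 7.56 and 7.91. These 2 genes, named after their values were seen, put Balb/c replicate 3 with Balb/cBy replicates 2 and 3, and not with its own strain. Not all clock genes grouped the arrays in this way. Clock, also named after its values were seen, stood at 8.77, 8.97 and 9.80 in Balb/c and at 9.73, 8.59 and 8.72 in Balb/cBy. Per1 stood at 9.79, 9.49 and 9.74 in Balb/c and at 9.10, 10.44 and 10.46 in Balb/cBy. By the rule for naming, Hlf differed by -0.20 (SE 0.15), Ciart by 0.42 (SE 0.30) and Per1 by 0.33 (SE 0.33). Cyp7a1 stood at 10.20 in Balb/c replicate 3 and at 12.23 and 11.66 in Balb/cBy replicates 2 and 3. The part of the hour of collection in the Cyp7a1 values was not tested.

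Of 10 measured feeding-sensitive genes, 6 were higher and 4 lower, with a median of 0.02. Its sign turned when Balb/c replicate 3 (-0.11), Balb/cBy replicate 2 (-0.11) or Balb/cBy replicate 3 (-0.05) was left out, and its highest value was 0.08, with Balb/c replicate 1 out. Fgf21 differed by -0.21 (SE 0.10) without overlap, and G6pc by -0.11 (SE 0.17). Lpin1, a phosphatidate phosphatase, stood at 10.99, 9.27 and 9.54 in Balb/c and at 9.42, 11.45 and 10.96 in Balb/cBy, the difference being 0.68 (SE 0.57). As for Cyp7a1, its highest Balb/c array was replicate 1 and its lowest Balb/cBy array was replicate 1. In Balb/cBy replicate 1, Lpin1 lay near Balb/c replicates 2 and 3, while Cyp7a1 lay near Balb/c replicate 1. The part of feeding in the Cyp7a1 values was not tested. Of 15 measured acute phase and inflammatory genes, 12 were higher and 3 lower, with a median of 0.11, or -0.03 without Balb/c replicate 3. The highest value with 1 array out was 0.20 (Balb/c replicate 2). Orm3 differed by 1.10 (SE 0.52), Orm1 by 0.29 (SE 0.17) and Saa3 by -1.41 (SE 1.06). Of 10 Kupffer cell markers, 6 were higher and 4 lower, with a median of 0.10. Its sign turned when Balb/c replicate 3 (-0.19) or Balb/cBy replicate 3 (-0.06) was left out, and leaving out Balb/c replicate 2 gave 0.26. Their array mean ran from 9.48 to 10.28 in Balb/c and from 9.77 to 10.17 in Balb/cBy, and Vsig4 (10.57 to 11.37) and C1qb (10.22 to 11.18) had the highest means. The part of inflammatory cells or signals in the Cyp7a1 and Nr0b2 values was not tested.

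Cyp7a1 is known as a gene of pericentral hepatocytes. Of 10 pericentral genes, 7 were higher and 3 lower, with a median of 0.11 (0.07 to 0.17 without single arrays). Of 8 measured periportal genes 3 were higher and 5 lower, with a median of -0.06. That median ran from -0.10 (Balb/cBy replicate 3 out) to 0.03 (Balb/cBy replicate 1 out), and was -0.0039 with Balb/c replicate 3 out. Rhbg, an ammonium transporter, differed by 0.36 (SE 0.13). Glul, glutamine synthetase of the hepatocytes next to the central vein, stood at 11.77, 11.76 and 11.71 in Balb/c and at 11.86, 12.03 and 11.92 in Balb/cBy. Its strains did not overlap, with a difference of 0.19 (SE 0.09), and Cyp1a2 differed by 0.21 (SE 0.12). The 3 lower pericentral genes, named after their values were seen, were Lgr5 (-0.17, SE 0.11), Axin2 (-0.06, SE 0.13) and Tbx3 (-0.04, SE 0.21). Of the periportal genes Hsd17b13 differed by -0.15 (SE 0.14), Hal by -0.16 (SE 0.15) and Cyp2f2 by 0.11 (SE 0.14). The part of pericentral and periportal hepatocytes in the Cyp7a1 values was not tested.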

How the data were processed

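The authors deposited log2 values per probe set, made with RMA (background correction, quantile normalization and median-polish summary), as named in the submitters' processing notes. That the values are log2 was taken from their range. Its version, any filter and the build: not given in the sources used here. Biotinylated cDNA was made from 500 ng of Trizol-extracted RNA, per the labels' protocols. The table held 41345 probe sets and no missing values. GEO's platform annotation, which can be old, gave 1 symbol for 23521 of them, several for 1814 and none here for 16010. For the 1082 genes with several probe sets the one with the highest mean was used, and no filter on low values was applied.

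Strain was taken from the labels. Balb/cBy was compared with Balb/c by limma 3.58.1 (lmFit, eBayes; R 4.3.3) on all 22180 genes, with Benjamini-Hochberg adjustment over all of them and a threshold of 0.05. Levels are means ± SD over 3 arrays. With 3 arrays a side, 0.1 is the smallest p of an exact permutation test. The script was tested on simulated data. The 10 genes, the gene lists and the rule for named genes were chosen with earlier results of these data known: from each pathway list the 3 genes with the smallest p, from each cell type list the 2 with the highest mean, with exceptions stated. The pancreas list was added after the values were seen. Lists are described by counts and medians, without a set test. Alternatives tried were a block for replicate number, recentring, repeated quantile normalization, 2 level filters, the mean of all probe sets, trended robust variance, array weights, a threshold of 0.1 and leaving out each array. Same-numbered arrays did not deviate together, so the numbers were not taken as pairs.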

Additional observations from a re-analysis of the deposited data

How the results depend on the processing

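With array weights 12 genes passed over the whole table, none of them one of the 10, against 0 with equal weights, and leaving out 1 array gave 0 to 3. The threshold of 0.1 gave 0. For the replicate block, the deviations of same-numbered arrays from their strain means correlated at -0.32, -0.20 and -0.23. With the replicate block 0 genes passed, the difference of Cyp7a1 was 1.24 (SE 0.43) and that of Nr0b2 -0.44 (SE 0.18), and no call changed. Outside leaving out arrays, Cyp7a1 ran from 1.01 to 1.26, Nr0b2 from -0.50 to -0.43 and Cyp27a1 from 0.14 to 0.27, none past the threshold. Cyp8b1 ran from 0.04 to 0.23, also not past it, with the lowest value under array weights. Signs turned for small differences: with repeated quantile normalization Nr1h4 was at -0.013 and Fgfr4 at -0.014, and with array weights Nr1h4 was at -0.0038, Slc10a1 at -0.0076 and Klb at 0.044. Leaving out 1 array gave -0.16 to 0.23 for Nr1h4, -0.14 to 0.20 for Slc10a1, -0.35 to 0.18 for Klb and -0.46 to 0.036 for Abcb11. The causes were not tested. The Cyp7a1 to Nr0b2 correlation of -0.80 was weakest, at -0.54, with the strain means removed. It was -0.76 with recentring and -0.89 with repeated quantile normalization. Without the 2 arrays farthest from the Cyp7a1 median it was -0.99, and without single arrays it ran from -0.91 to -0.77. The median of cholangiocyte markers was 0.04 with the 25th percentile filter, which drops Cftr and Epcam. The median level filter gave 0.16, which is the difference of Sox9, the only marker left.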
